A study of Mus musculus with 22 samples.

Results

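The genes described here make cholesterol and fatty acids, sense sterols or move them between membranes. They were named in a list of 36 symbols, and the rows of the counts table for those symbols were kept where the level was at least 1 CPM (reads of a gene scaled to the size of the library) in at least 5 libraries. All 36 symbols were rows of the table and 34 passed, of 24091 genes in the table and 11453 that passed the same CPM minimum. Among the listed symbols, measured values decided which were kept through this minimum alone. The list itself was chosen with earlier results of these data known. Scd1 reached 1 CPM in 3 libraries and Fads2 in 4, so both fell outside, while Idi1, with 8 libraries, and Abca1, with 19, were the members nearest the minimum on the inside, and the other 32 reached it in 22 of 22 libraries.

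RNA was sequenced from 22 libraries of donor T cells, CD4 or CD8, sorted from the colon (called gut) or the spleen of mice that had received an allogeneic haematopoietic cell transplant. Donors were wild-type C57BL/6 mice and recipients were lethally irradiated wild-type BALB/c mice, in each group. Recipients were given anti-IL-2 antibody or control IgG on alternate days, starting on day 0 and ending on day 6, and cells were taken on day 7. The 8 groups were gut anti-IL-2 (n = 3 libraries for CD4 and 3 for CD8), gut IgG (n = 2 and 2), spleen anti-IL-2 (n = 3 and 3) and spleen IgG (n = 3 and 3), in batches named 181201, 181212 and 190306, of which 181201 has no gut IgG library. Whether a batch's libraries share animals or pool several is not in the labels, so p values measure the spread between these libraries. Sorted populations were measured in bulk, and fewer cells of a type cannot be told apart from less RNA per cell.

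Cholesterol is built from acetyl-CoA through mevalonate, farnesyl diphosphate and squalene, and squalene is closed into lanosterol and trimmed to cholesterol. When the endoplasmic reticulum is low in sterol, the escort protein Scap carries the membrane-bound SREBP transcription factors to the Golgi, where they are cut free and enter the nucleus to switch on the genes of synthesis. Insig proteins hold Scap back when sterols are plentiful, and oxysterols act on LXR receptors, which switch on the export pumps Abca1 and Abcg1. T cells that divide need new membrane, and activation is known to raise SREBP activity and lower LXR activity in them.

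The promoters of 5 members are shown as examples. They were taken from the members that were higher in gut cells of both types and hold a sterol regulatory element or a CCAAT box. CCAAT is a general promoter box that also occurs in many genes outside sterol synthesis. Other members, among them Lss, Mvd, Cyp51 and Ebp, met both conditions and are not shown. The sequences are from RefSeq (build GRCm38.p6), 250 bases before the transcription start in gene orientation, 5′ to 3′, and the capitals mark TCACNCCAC, a form of the sterol regulatory element, or CCAAT, the box bound by NF-Y, on either strand (ATTGG where the box lies on the other strand). Hmgcs1, HMG-CoA synthase, was the single member with both motifs (chr13:119690101-119690350, plus strand), and its sterol element began 137 bases before the start.
Hmgcs1: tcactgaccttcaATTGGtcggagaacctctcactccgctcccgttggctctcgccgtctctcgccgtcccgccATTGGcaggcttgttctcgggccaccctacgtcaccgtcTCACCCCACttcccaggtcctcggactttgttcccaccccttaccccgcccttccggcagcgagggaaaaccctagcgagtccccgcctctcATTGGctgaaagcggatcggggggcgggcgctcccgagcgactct
Mvk, mevalonate kinase, held 5 CCAAT boxes (chr5:114444019-114444268, plus strand).
Mvk: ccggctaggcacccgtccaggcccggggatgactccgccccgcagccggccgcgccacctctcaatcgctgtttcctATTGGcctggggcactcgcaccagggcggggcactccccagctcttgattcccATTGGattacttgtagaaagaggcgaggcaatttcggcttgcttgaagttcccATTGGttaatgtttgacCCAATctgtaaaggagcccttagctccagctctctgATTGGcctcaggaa
Hsd17b7, a reductase of sterol demethylation, held 3 (chr1:169969206-169969455, minus strand).
Hsd17b7: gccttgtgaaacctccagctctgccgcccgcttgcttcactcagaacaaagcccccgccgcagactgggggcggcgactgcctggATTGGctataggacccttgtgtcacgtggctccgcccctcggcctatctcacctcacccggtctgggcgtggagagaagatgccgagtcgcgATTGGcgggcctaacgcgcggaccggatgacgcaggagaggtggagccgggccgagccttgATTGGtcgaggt
Insig1, the sterol sensor, held 1 (chr5:28071162-28071411, plus strand).
Insig1: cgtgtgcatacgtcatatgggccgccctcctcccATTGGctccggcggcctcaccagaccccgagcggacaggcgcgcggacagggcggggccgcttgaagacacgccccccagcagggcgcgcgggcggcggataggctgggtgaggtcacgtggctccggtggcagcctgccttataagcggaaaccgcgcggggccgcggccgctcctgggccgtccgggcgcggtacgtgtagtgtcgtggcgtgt
Srebf2, which encodes the SREBP that acts most on cholesterol genes, also held 1 (chr15:82147019-82147268, plus strand).
Srebf2: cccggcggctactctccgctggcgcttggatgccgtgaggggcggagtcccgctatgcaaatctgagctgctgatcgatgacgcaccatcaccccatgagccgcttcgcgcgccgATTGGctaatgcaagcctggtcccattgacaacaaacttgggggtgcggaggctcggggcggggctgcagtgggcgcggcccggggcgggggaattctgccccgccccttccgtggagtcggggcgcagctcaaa
Of the 36 members, 27 had an entry in the promoter table, and 20 of the 27 (74.1%) held CCAAT, against 37.5% of all 27025 genes in that table. Those 27025 genes were not limited to genes detected in these libraries, so shares of members and of all genes compare unlike sets. By role, CCAAT was found in 9 of 9 enzymes between squalene and cholesterol, in 5 of 6 of the mevalonate enzymes and in 1 of 5 fatty acid genes. An exact match to TCACNCCAC was found in 1 of 27 members and in 1.22% of all genes, and the match in that member did not overlap a CCAAT box. Other forms of the sterol element were not searched, so this count does not show that the other members lack one. GGGCGG, the box bound by Sp1, was found in 23 of 27 members and in 35.4% of all genes. A motif match describes the letters of these windows and is not a measured binding site.

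Library totals were 14628806 to 24518362 counts, and levels below are CPM scaled by TMM, a correction for library composition. T cell markers summed to 3297 to 5744 CPM in the 22 libraries, with 6 of 7 listed markers in the table and none of them at 0. Markers of gut epithelium summed to 39.9 to 180.2 CPM in gut libraries, against 18.7 to 25.6 CPM in spleen libraries. Markers of B cells and plasma cells summed to 15.1 to 482.7 CPM in gut libraries, against 2.54 to 21.8 CPM in spleen libraries, with 1 of 4 tested called higher in gut in each cell type. Markers of pancreatic acinar cells summed to 8.34 to 87.2 CPM in gut libraries, against 3.21 to 13.02 CPM in spleen libraries, with 8 of 9 tested called higher in gut CD4 cells and 9 of 9 in gut CD8 cells. The part of these cell types in the gut against spleen results was not tested. Adipocyte markers summed to 8.68 to 39.2 CPM in the 4 gut anti-IL-2 libraries of batches 181201 and 181212 and to at most 1.92 CPM in the other 18, and 7 of the 10 adipocyte markers were at 0 in 11 or more libraries. In batch 190306 the labelled treatment difference ran the other way from batches 181201 and 181212: Il2ra, the IL-2 receptor alpha chain and an IL-2 target, differed by -1.98 and -2.05 (log2 CPM, anti-IL-2 minus IgG) in spleen CD4 cells of batches 181201 and 181212, and by 1.76 in batch 190306. Socs2 and Cish, STAT5 targets that dampen cytokine signals, turned with it in each of the 4 populations. The 5 CD8 IgG libraries carry a description that gives the opposite tissue to their source name; the source name was followed, and all treatment labels were kept. Gut and spleen libraries were paired by batch and treatment label, which gave 5 pairs per cell type.

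Per length of exon, Acly, the citrate lyase that makes cytosolic acetyl-CoA, was the most abundant member, with a median level of 82.9 CPM per kilobase over the 22 libraries. Srebf2 followed with 45.5 CPM per kilobase, Npc2, a lysosomal cholesterol carrier, with 42.2, and Ebp, a sterol isomerase, with 31.0. The ranges over libraries of Srebf2 (27.8 to 62.6 CPM per kilobase), Npc2 (34.3 to 50.02) and Ebp (22.3 to 38.0) overlapped each other, and that of Acly (70.3 to 90.5) lay above them. Most enzymes of sterol synthesis were far lower: Hmgcs1 had a median of 14.7, Cyp51 of 9.35, Sqle of 4.81, Lss of 2.96 and Fdps of 1.60 CPM per kilobase. At the bottom stood Abca1 with 0.365, Idi1 with 0.186, Fads2 with 0.0886 and Scd1 with 0.0532 CPM per kilobase. Reads of some members can be shared with near copies: 39.1% of the 50-base stretches in Acat2 transcripts also occur in Acat3, 30.4% of those in Acaca and 26.2% of those in Fdps occur in other annotated genes, as do 17.7% of those in Idi1. Levels of these 4 are uncertain. The strand setting of the counting is not given in the sources used here, and exons of Fdft1 overlap the opposite-strand gene Ctsb over 18.3% of their length, and those of Tm7sf2 overlap Vps51 over 12.1%.

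Donor T cells from the gut held more transcript of most cholesterol synthesis genes than those from the spleen, in CD4 and in CD8 cells. In edgeR's quasi-likelihood test with pairs as blocks, 20 members were higher and 4 lower in gut CD4 cells, of 34, at a Benjamini-Hochberg adjusted p under 0.05, and 20 were higher and 2 lower in gut CD8 cells. The background was large: 44.3% of 12841 genes tested were called between gut and spleen in CD4 cells (23.9% higher) and 42.7% in CD8 cells (22.3% higher). The median log2 fold change of members was 0.28 in CD4 cells against 0.01 over all genes, and 0.35 in CD8 cells against -0.003 over all genes. The cell types shared 19 of the 20 members called higher in each, with Acly called in CD4 cells and Elovl6 in CD8 cells besides, and they shared Abca1 and Abcg1 among those called lower. Of the 24 CD4 calls, 23 went the same way in all 5 pairs, as did 21 of the 22 CD8 calls. The calls came from a test of these same pairs, so this agreement is not separate evidence. The matching share over all called genes was not counted. Gut and spleen libraries did not overlap for 14 members in CD4 cells (11 higher, 3 lower in gut) and for 14 in CD8 cells (13 higher, 1 lower). Of all 12841 genes, 12.1% did not overlap in CD4 cells (6.53% higher and 5.57% lower in gut) and 13.0% in CD8 cells (7.02% higher and 6.02% lower).

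**Figure D1:**
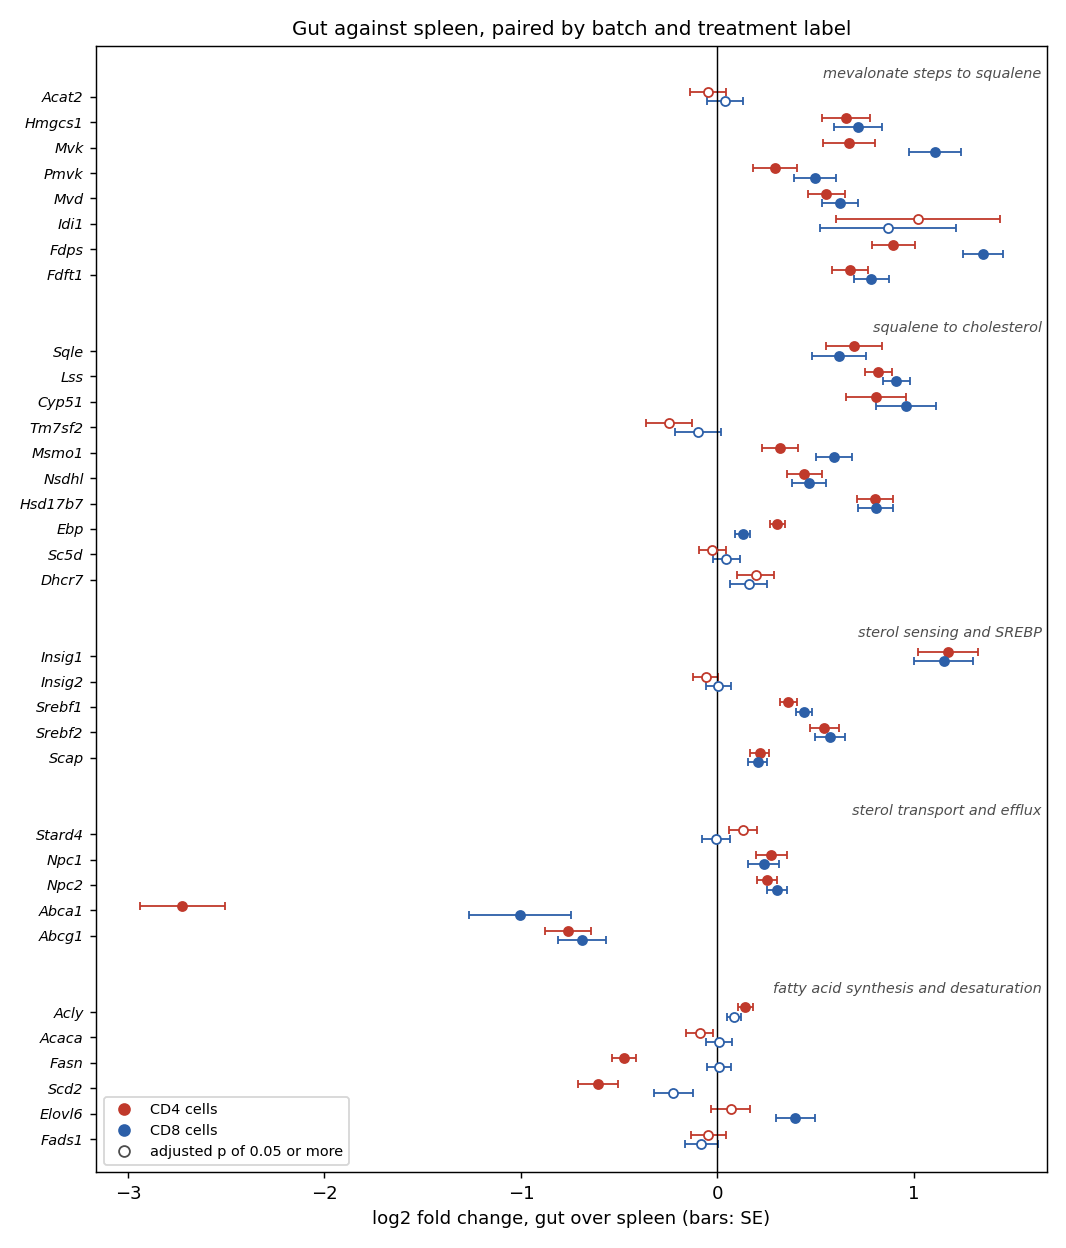
Log2 fold change of each of the 34 members, gut over spleen, in CD4 cells (red) and CD8 cells (blue), with bars of 1 SE and filled points for an adjusted p under 0.05. The 2 groups of sterol enzymes lie mostly right of 0, with Fdps in CD8 cells at 1.35, while Abca1 in CD4 cells lies at -2.72.

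Among the enzymes from acetyl-CoA to squalene, 6 of 8 were higher in gut cells of each type (Hmgcs1, Mvk, Pmvk, Mvd, Fdps and Fdft1), with a median log2 fold change of 0.66 over the 8 in CD4 cells and 0.75 in CD8 cells. Fdps, farnesyl diphosphate synthase, stands where the path branches to cholesterol and to the lipid tails of proteins. Its level was 10.6, 8.40 and 11.5 CPM in the gut CD4 anti-IL-2 libraries (batches 181201, 181212 and 190306, the order used throughout) and 10.1 and 10.2 CPM in the gut CD4 IgG libraries (batches 181212 and 190306), against 4.48 to 6.55 CPM, median 4.94, in the 6 spleen CD4 libraries. In CD8 cells it was 17.6, 16.1 and 15.1 CPM with anti-IL-2 and 15.2 and 15.3 CPM with IgG in the gut, against 5.47 to 6.89 CPM, median 6.55, in the spleen. No gut library overlapped the spleen libraries in either cell type. The log2 fold change was 0.90 ± 0.11 (SE, adjusted p = 3.6e-05) in CD4 cells and 1.35 ± 0.10 (adjusted p = 1.4e-06) in CD8 cells, a 2.55-fold difference, by edgeR's quasi-likelihood test with Benjamini-Hochberg adjustment.

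Mvk was at 9.16, 7.72 and 11.4 CPM in gut CD4 anti-IL-2 libraries and at 13.4 and 9.39 CPM in gut CD4 IgG libraries, against 4.79 to 7.29 CPM, median 6.10, in spleen CD4 libraries. CD8 levels of Mvk were 13.0, 10.1 and 11.8 CPM with anti-IL-2 and 13.2 and 11.2 CPM with IgG in the gut, against 3.76 to 7.12 CPM, median 5.47, in the spleen. The groups did not overlap, and the log2 fold changes were 0.67 ± 0.13 in CD4 and 1.11 ± 0.13 in CD8 cells (SE). Fdft1, squalene synthase, which commits the path to sterols, was at 34.5, 34.5 and 28.9 CPM in gut CD4 anti-IL-2 libraries and 35.6 and 32.8 CPM in gut CD4 IgG libraries, against 19.3 to 22.3 CPM, median 21.2, in spleen CD4 libraries. In CD8 cells Fdft1 was at 50.2, 46.3 and 34.3 CPM with anti-IL-2 and 45.2 and 34.9 CPM with IgG in the gut, against 22.9 to 25.1 CPM, median 24.6, in the spleen. Both gut libraries of batch 190306 were the lowest gut libraries for Fdft1 in each cell type, and they stayed above each spleen library.

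Hmgcs1, which makes HMG-CoA and whose promoter holds the sterol element shown above, was at 82.8, 82.1 and 65.7 CPM in gut CD4 anti-IL-2 libraries and 94.8 and 69.3 CPM in gut CD4 IgG libraries, against 40.9 to 64.1 CPM, median 49.98, in spleen CD4 libraries. CD8 levels of Hmgcs1 were 126.1, 117.2 and 80.2 CPM with anti-IL-2 and 121.6 and 81.6 CPM with IgG in the gut, against 56.6 to 72.0 CPM, median 62.9, in the spleen. Gut libraries lay above spleen libraries in both cell types, with log2 fold changes of 0.65 ± 0.12 and 0.72 ± 0.12 (SE). Mvd, which makes isopentenyl diphosphate, was at 18.5, 16.5 and 20.3 CPM in gut CD4 anti-IL-2 libraries and 22.7 and 21.8 CPM in gut CD4 IgG libraries, against 10.2 to 16.5 CPM, median 14.6, in spleen CD4 libraries. In CD8 cells Mvd was at 25.4, 25.8 and 21.7 CPM with anti-IL-2 and 29.2 and 22.2 CPM with IgG in the gut, against 14.4 to 17.1 CPM, median 15.8, in the spleen. One gut CD4 library, anti-IL-2 of batch 181212, overlapped the spleen range for Mvd. Pmvk, phosphomevalonate kinase, was the weakest call of the group, with 0.29 ± 0.11 in CD4 cells (SE, adjusted p = 0.047), and it missed the threshold in 5 of 8 alternatives, among them DESeq2 (adjusted p = 0.064) and the fit without the 4 gut anti-IL-2 libraries that held adipocyte markers (0.15, adjusted p = 0.35). Idi1, the isopentenyl diphosphate isomerase, was at 0.371 to 1.29 CPM in gut CD4 libraries, against 0.123 to 0.643 CPM in spleen CD4 libraries, and at 1.12 to 1.92 CPM in gut CD8 libraries, against 0.516 to 1.12 CPM in spleen CD8 libraries. With so few counts its log2 fold changes of 1.02 ± 0.42 and 0.87 ± 0.34 did not pass the threshold, and neither did those of Acat2, the cytosolic thiolase (-0.05 and 0.04).

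Between squalene and cholesterol, 7 of 10 enzymes were higher in gut cells of each type (Sqle, Lss, Cyp51, Msmo1, Nsdhl, Hsd17b7 and Ebp), with a median log2 fold change of 0.38 over the 10 in CD4 cells and 0.53 in CD8 cells. Lss, lanosterol synthase, which closes the sterol rings, had the smallest p of any member in CD8 cells and, after Abca1, in CD4 cells. It was at 34.6, 35.9 and 50.8 CPM in gut CD4 anti-IL-2 libraries and 46.5 and 42.2 CPM in gut CD4 IgG libraries, against 19.0 to 31.1 CPM, median 26.0, in spleen CD4 libraries. CD8 levels of Lss were 50.5, 51.4 and 54.8 CPM with anti-IL-2 and 51.0 and 46.4 CPM with IgG in the gut, against 23.2 to 32.8 CPM, median 27.7, in the spleen. The ranges did not overlap, and the 10 pairs differed by 0.63 to 1.14 on the log2 scale. The log2 fold changes were 0.82 ± 0.07 in CD4 cells (SE, adjusted p = 2.5e-06) and 0.91 ± 0.07 in CD8 cells (adjusted p = 1.2e-06, edgeR's quasi-likelihood test).

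Hsd17b7 was at 19.8, 19.8 and 17.0 CPM in gut CD4 anti-IL-2 libraries and 17.6 and 19.8 CPM in gut CD4 IgG libraries, against 8.96 to 11.9 CPM, median 11.6, in spleen CD4 libraries. CD8 levels of Hsd17b7 were 26.2, 23.5 and 20.8 CPM with anti-IL-2 and 24.7 and 23.5 CPM with IgG in the gut, against 12.2 to 15.4 CPM, median 13.0, in the spleen. The fold changes were nearly equal, at 0.80 ± 0.09 and 0.81 ± 0.09 (log2, SE), and no library overlapped. Ebp moved less: it was at 68.9, 64.1 and 87.5 CPM in gut CD4 anti-IL-2 libraries and 76.0 and 79.4 CPM in gut CD4 IgG libraries, against 51.5 to 71.7 CPM, median 61.1, in spleen CD4 libraries. In CD8 cells Ebp was at 76.3, 71.6 and 87.7 CPM with anti-IL-2 and 78.9 and 83.4 CPM with IgG in the gut, against 65.2 to 81.5 CPM, median 71.6, in the spleen. The ranges of Ebp overlapped in both cell types, but each of the 10 pairs was higher in gut, by 0.10 to 0.42 (log2). Its CD8 call of 0.13 ± 0.04 (SE, adjusted p = 0.019) was lost in 4 of 8 alternatives, among them the fit without batch 190306 (adjusted p = 0.12) and that with no pair block (adjusted p = 0.37). Cyp51, the lanosterol demethylase, was at 40.5 to 73.9 CPM in gut CD4 libraries, against 29.6 to 38.1 CPM in spleen CD4 libraries, and at 60.1 to 101.1 CPM in gut CD8 libraries, against 35.3 to 46.7 CPM in spleen CD8 libraries. The remaining 3 enzymes, Tm7sf2 and Dhcr7, both sterol reductases, and Sc5d, a sterol desaturase, did not pass the test in either cell type (log2 fold changes of -0.25 to 0.19).

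Of the sterol sensing genes, Insig1, Srebf1, Srebf2 and Scap were higher in gut cells of both types, and Insig2, the relative of Insig1, was not called (-0.06 and 0.01). Insig1, itself a known SREBP target, had the largest log2 fold change of the members called higher in CD4 cells. It was at 45.4, 53.2 and 35.0 CPM in gut CD4 anti-IL-2 libraries and 62.3 and 36.2 CPM in gut CD4 IgG libraries, against 17.8 to 24.9 CPM, median 20.9, in spleen CD4 libraries. In CD8 cells it was at 49.6, 53.2 and 34.1 CPM with anti-IL-2 and 59.5 and 43.6 CPM with IgG in the gut, against 18.3 to 27.8 CPM, median 22.3, in the spleen. The groups did not overlap, and the difference was 2.26-fold in CD4 cells (log2 1.17 ± 0.15, SE, adjusted p = 1.1e-04) and 2.22-fold in CD8 cells (1.15 ± 0.15, adjusted p = 1.4e-04, edgeR's quasi-likelihood test).

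Srebf2 was at 352.8, 340.7 and 449.4 CPM in gut CD4 anti-IL-2 libraries and 430.7 and 449.5 CPM in gut CD4 IgG libraries, against 214.2 to 370.8 CPM, median 249.0, in spleen CD4 libraries. In CD8 cells it was at 324.8, 328.4 and 396.7 CPM with anti-IL-2 and 342.5 and 377.5 CPM with IgG in the gut, against 199.4 to 301.6 CPM, median 216.4, in the spleen. Spleen libraries of batch 190306 were the highest of the spleen, which made the CD4 ranges overlap, and the paired differences were 0.28 to 0.76 (log2). Srebf1, which encodes the SREBP forms that act more on fatty acid genes, was at 117.5, 110.0 and 177.6 CPM in gut CD4 anti-IL-2 libraries and 118.8 and 166.6 CPM in gut CD4 IgG libraries, against 88.9 to 132.2 CPM, median 95.2, in spleen CD4 libraries. In CD8 cells Srebf1 was at 143.9, 132.6 and 192.8 CPM with anti-IL-2 and 126.8 and 187.1 CPM with IgG in the gut, against 97.4 to 144.8 CPM, median 98.9, in the spleen. Within the 10 pairs Srebf1 was higher in gut by 0.28 to 0.55 (log2), and its fold changes were 0.36 ± 0.04 in CD4 and 0.44 ± 0.04 in CD8 cells (SE). Scap rose less, by 0.21 ± 0.05 in both (SE). Levels of SREBP mRNA do not measure the cut, active protein.

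Sterol transport genes divided. Npc1 and Npc2, which pass cholesterol out of lysosomes, were higher in gut cells, with log2 fold changes of 0.28 ± 0.08 and 0.25 ± 0.05 in CD4 cells and 0.24 ± 0.08 and 0.30 ± 0.05 in CD8 cells (SE), and Stard4, a soluble sterol carrier, was not called (0.13 and -0.01). The export pumps Abca1 and Abcg1 were lower. Abca1, which loads cholesterol onto apolipoprotein, was at 2.65, 5.06 and 2.78 CPM in gut CD4 anti-IL-2 libraries and 1.89 and 1.78 CPM in gut CD4 IgG libraries, against 34.6, 28.2 and 11.98 CPM in spleen CD4 anti-IL-2 libraries and 28.0, 11.7 and 12.3 CPM in spleen CD4 IgG libraries. In CD8 cells it was at 3.67, 3.90 and 0.355 CPM with anti-IL-2 and 0.695 and 0.715 CPM with IgG in the gut, against 1.27 to 6.39 CPM, median 3.94, in the spleen. The CD4 ranges were far apart and the CD8 ranges overlapped, although each CD8 pair was lower in gut. Abca1 was 6.61-fold lower in gut CD4 cells (log2 -2.72 ± 0.22, SE, adjusted p = 2.0e-06) and 2.01-fold lower in gut CD8 cells (-1.004 ± 0.26, adjusted p = 0.0084, edgeR's quasi-likelihood test), and the CD8 call was lost without batch 190306 (adjusted p = 0.087).

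Macrophages also express Abca1, and 7 of the 10 macrophage markers listed were lower and 1 higher in gut CD4 cells, while 1 was lower in gut CD8 cells. Their summed level was 15.3 to 63.9 CPM in gut CD4 libraries, against 16.1 to 302.7 CPM in spleen CD4 libraries, and 42.0 to 102.0 CPM in gut CD8 libraries, against 33.4 to 127.0 CPM in spleen CD8 libraries, with 6 of the 10 at 0 in some library. By CD4 pair, the sum was lower in gut in 3 of 5, at 63.9 CPM in gut and 302.7 CPM in spleen for anti-IL-2 of batch 181201, 15.3 and 28.7 CPM for anti-IL-2 of batch 190306, and 32.5 and 208.1 CPM for IgG of batch 190306. It was higher in gut in the other 2, at 45.1 CPM in gut and 39.2 CPM in spleen for anti-IL-2 and 33.1 and 16.1 CPM for IgG of batch 181212. Abca1 differed by -3.66, -2.06 and -2.73 (log2, gut minus spleen) in the first 3 pairs and by -2.46 and -2.56 in the other 2. The part of macrophages in its difference was not tested. Abcg1, which exports cholesterol to lipoproteins, was at 59.7, 60.1 and 81.0 CPM in gut CD4 anti-IL-2 libraries and 78.7 and 70.2 CPM in gut CD4 IgG libraries, against 102.4 to 145.2 CPM, median 122.3, in spleen CD4 libraries. In CD8 cells Abcg1 was at 31.5, 35.4 and 45.8 CPM with anti-IL-2 and 45.9 and 44.7 CPM with IgG in the gut, against 58.7 to 87.4 CPM, median 66.0, in the spleen. No library overlapped, and the log2 fold changes were -0.76 ± 0.12 and -0.69 ± 0.12 (SE).

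Fatty acid genes did not follow the sterol genes. Of the 6 that passed the CPM minimum, Acly was higher and Fasn and Scd2 were lower in gut CD4 cells, and Elovl6, an elongase of long saturated chains, was higher in gut CD8 cells, with a median log2 fold change over the 6 of -0.07 and 0.01. Fasn, fatty acid synthase, was at 187.6, 202.6 and 209.5 CPM in gut CD4 anti-IL-2 libraries and 182.5 and 242.1 CPM in gut CD4 IgG libraries, against 237.2 to 367.0 CPM, median 279.6, in spleen CD4 libraries. In CD8 cells Fasn was at 262.2, 268.3 and 297.4 CPM with anti-IL-2 and 213.7 and 290.1 CPM with IgG in the gut, against 232.3 to 316.4 CPM, median 261.7, in the spleen. It was lower in gut in 5 of 5 CD4 pairs (log2 -0.48 ± 0.06, SE, adjusted p = 7.4e-05) and its CD8 difference was 0.01 ± 0.06 (adjusted p = 0.92, edgeR's quasi-likelihood test). Scd2, a desaturase of saturated chains, was at 110.2 to 151.9 CPM in gut CD4 libraries, against 159.7 to 260.6 CPM in spleen CD4 libraries, and at 106.9 to 137.2 CPM in gut CD8 libraries, against 114.4 to 190.6 CPM in spleen CD8 libraries. Acaca, acetyl-CoA carboxylase, and Fads1, a desaturase of polyunsaturated chains, were not called in either cell type (-0.09 to 0.01). Of the 2 members outside the minimum, Scd1 was at 7.533 and 8.997 CPM in the gut CD4 and CD8 anti-IL-2 libraries of batch 181212 and at 1.20 CPM in the CD8 one of batch 181201, and at no more than 0.775 CPM elsewhere. Those 3 libraries are among the 4 with adipocyte markers above 8 CPM. Fads2 was at 0.321 to 1.31 CPM in the 10 gut libraries and at 0 to 0.507 CPM in the 12 spleen libraries.

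**Figure D2:**
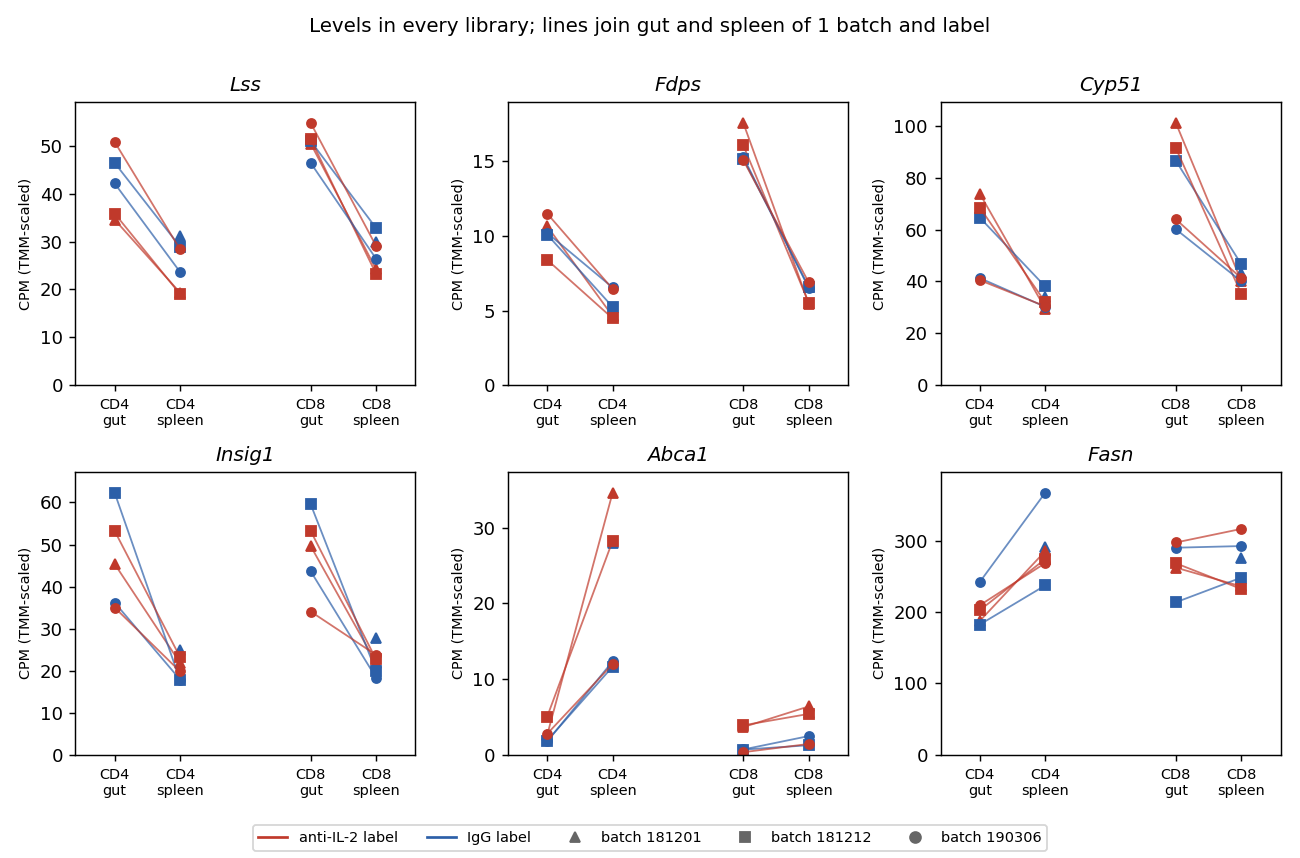
CPM of 6 members in every library, gut left of spleen for CD4 and CD8 cells, with lines that join the 2 tissues of a batch and label, colours for the treatment label and shapes for the batch. Gut libraries lie above spleen libraries for Lss, Fdps, Cyp51 and Insig1, and below them for Abca1 in CD4 cells.

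The gut effect itself differed between CD4 and CD8 cells for 2 of 34 members, with 2.17% of all genes called (0.958% lower). The difference, CD4 minus CD8, was -1.72 ± 0.34 for Abca1 (log2, SE, adjusted p = 0.025) and -0.48 ± 0.09 for Fasn (adjusted p = 0.016, edgeR's quasi-likelihood test). Neither was called with batch as a term in place of the pair block, without batch 190306, or without the 4 gut anti-IL-2 libraries that held adipocyte markers, where the values were -1.48, -2.26 and -0.91 for Abca1 and -0.46, -0.53 and -0.34 for Fasn. For Fdps and Mvk the CD8 effect was larger by 0.46 ± 0.15 and 0.44 ± 0.19 (log2, SE), with adjusted p = 0.14 and 0.26. For Insig1, Hsd17b7 and Srebf2 the difference was within 0.03 of 0, with SEs of 0.21, 0.13 and 0.11.

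The size of the sterol effect varied by batch. Over the 18 sterol enzymes, the median paired difference was 0.73 in CD4 and 0.92 in CD8 cells (log2, gut minus spleen) for the anti-IL-2 pairs of batch 181201, 0.64 and 0.81 for those of batch 181212, and 0.26 and 0.36 for those of batch 190306. For IgG pairs it was 0.51 and 0.66 in batch 181212 and 0.43 and 0.37 in batch 190306. Each of the 10 pairs thus had a median above 0, with 13 to 18 of the 18 enzymes higher in gut. Sqle, squalene epoxidase, differed by 0.15 to 0.47 in the 4 pairs of batch 190306 and by 0.65 to 1.13 in the other 6. Without the 4 gut anti-IL-2 libraries that held adipocyte markers, 21 members were called in CD4 cells, with 29.8% of all genes called in that fit, and 18 in CD8 cells, with 30.3%.

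Neighbouring genes of lipid metabolism did not share the direction of the sterol enzymes. Among 16 other sterol and isoprenoid enzymes tested, 5 were higher and 5 lower in gut CD4 cells, and 6 higher and 3 lower in gut CD8 cells, and Fnta, a subunit of protein prenyl transferases, was lower by 0.63 in both (log2). Of 14 genes of SREBP processing and lipoprotein uptake, 4 were higher and 3 lower in CD4 cells, and 5 higher and 3 lower in CD8 cells, with Aup1, which takes part in degradation at the endoplasmic reticulum, higher by 0.46 and 0.38. Of 17 LXR and sterol storage genes, 5 were higher and 4 lower in each cell type, among them Soat2, which esterifies cholesterol (1.26 and 1.21), and Nr1h2, which encodes LXR beta (0.50 and 0.53). Among 25 other genes of fatty acid and glyceride synthesis, 6 were higher and 7 lower in CD4 cells, and 5 higher and 6 lower in CD8 cells, and Dgat1, which makes triglyceride, was higher by 1.72 and 1.47. Of 17 fatty acid oxidation genes, 5 were higher and 2 lower in CD4 cells, and 3 higher and 5 lower in CD8 cells, with Decr1 lower by 0.95 in CD4 cells and Cpt1a, the gate of mitochondrial import, lower by 0.43 in CD8 cells. Median log2 fold changes of these lists lay between -0.08 and 0.09.

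Proliferation genes were mostly lower in gut CD8 cells, and their direction varied by pair in CD4 cells. Of 30 listed, 1 was higher and none lower in gut CD4 cells (1 at an unadjusted p under 0.05), and 23 were lower in gut CD8 cells, where Mki67, a marker of dividing cells, differed by -0.74 ± 0.15 (log2, SE). By CD4 pair, 30 of 30 proliferation genes were higher in gut in the anti-IL-2 pairs of batches 181201 and 181212, which also had the largest median sterol differences in CD4 cells (0.73 and 0.64, log2). In the CD4 pairs of anti-IL-2 in batch 190306 and of IgG in batch 181212, 28 of 30 were lower in gut, with median sterol differences of 0.26 and 0.51. In the IgG pair of batch 190306 14 of 30 were higher, with a median sterol difference of 0.43. In the 5 CD8 pairs 21 to 30 of the 30 were lower in gut. Cish and Socs2 were higher in gut, by 2.48 and 1.19 in CD4 cells and by 3.23 and 1.98 in CD8 cells (log2). The part of proliferation and of cytokine signals in the sterol differences was not tested. Among genes outside the lists, those whose mean levels over the 8 groups were most like the mean of the mevalonate enzymes were Tbcb, Psmb8, Ntan1, Hsd17b10 and Cops4, with Pearson correlations of 0.983 to 0.989 across 8 group means, which share the same libraries.

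CD4 cells held less transcript of most sterol synthesis enzymes than CD8 cells in both tissues. In the gut 2 members were higher and 20 lower in CD4 cells (background 52.4% of genes called, 25.8% lower), and in the spleen 7 were higher and 18 lower (63.1%, 31.0% lower). The median log2 fold change of members was -0.22 in gut and -0.16 in spleen, against -0.01 and 0.01 over all genes, and 16 members were lower in both tissues. Of the 8 mevalonate enzymes, 7 were lower in gut CD4 cells and 6 in spleen CD4 cells, among them Hmgcs1 (-0.40 ± 0.06 and -0.36 ± 0.05, log2, SE) and Fdps (-0.64 ± 0.09 and -0.23 ± 0.09). Of the 10 enzymes from squalene on, 7 were lower in gut, and 6 were lower and 1 higher in spleen, with Cyp51 at -0.50 ± 0.05 and -0.35 ± 0.05. Fads1 was lower by 0.75 and 0.80, at 13.7 to 19.4 CPM in gut CD4 libraries, against 22.6 to 31.4 CPM in gut CD8 libraries, and at no more than 19.3 CPM in spleen CD4 libraries, against 23.8 to 34.4 CPM in spleen CD8 libraries, with no overlap in either tissue.

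The exporters and Srebf2 went the other way. Abcg1 was higher in CD4 cells by 0.79 ± 0.05 in gut and 0.84 ± 0.04 in spleen (log2, SE), and its CD4 and CD8 ranges given above did not overlap in either tissue. Srebf2 was higher by 0.19 ± 0.04 and 0.21 ± 0.04. Abca1 was 5.80-fold higher in spleen CD4 than spleen CD8 cells (2.54 ± 0.23), and its gut difference of 0.77 ± 0.35 was not called (adjusted p = 0.081, edgeR's quasi-likelihood test). Of 10 macrophage markers, 8 were higher and 1 lower in spleen CD4 cells. Their spleen sum was higher in CD4 than CD8 cells for anti-IL-2 of batch 181201 (302.7 and 127 CPM) and IgG of batch 190306 (208.1 and 98.7 CPM). It was lower for IgG of batches 181201 (53.1 and 66.3 CPM) and 181212 (16.1 and 33.4 CPM). For anti-IL-2 of batches 181212 (39.2 and 55.0 CPM) and 190306 (28.7 and 55.5 CPM) it was lower too. The part of macrophages in this Abca1 difference was not tested. Scd2, Elovl6, Insig2 and Tm7sf2 were higher in spleen CD4 cells, by 0.15 to 0.45, and were not called in gut (-0.005 to 0.12). All 30 proliferation genes were lower in CD4 cells in both tissues, with medians of -0.72 in gut and -1.16 in spleen, and their part in the sterol differences was not tested. With no pair block 7 members were called in gut (19.4% of all genes) and 13 in spleen (33.5%), and with batch in place of the block 11 were called in gut (31.9%).

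**Figure D3:**
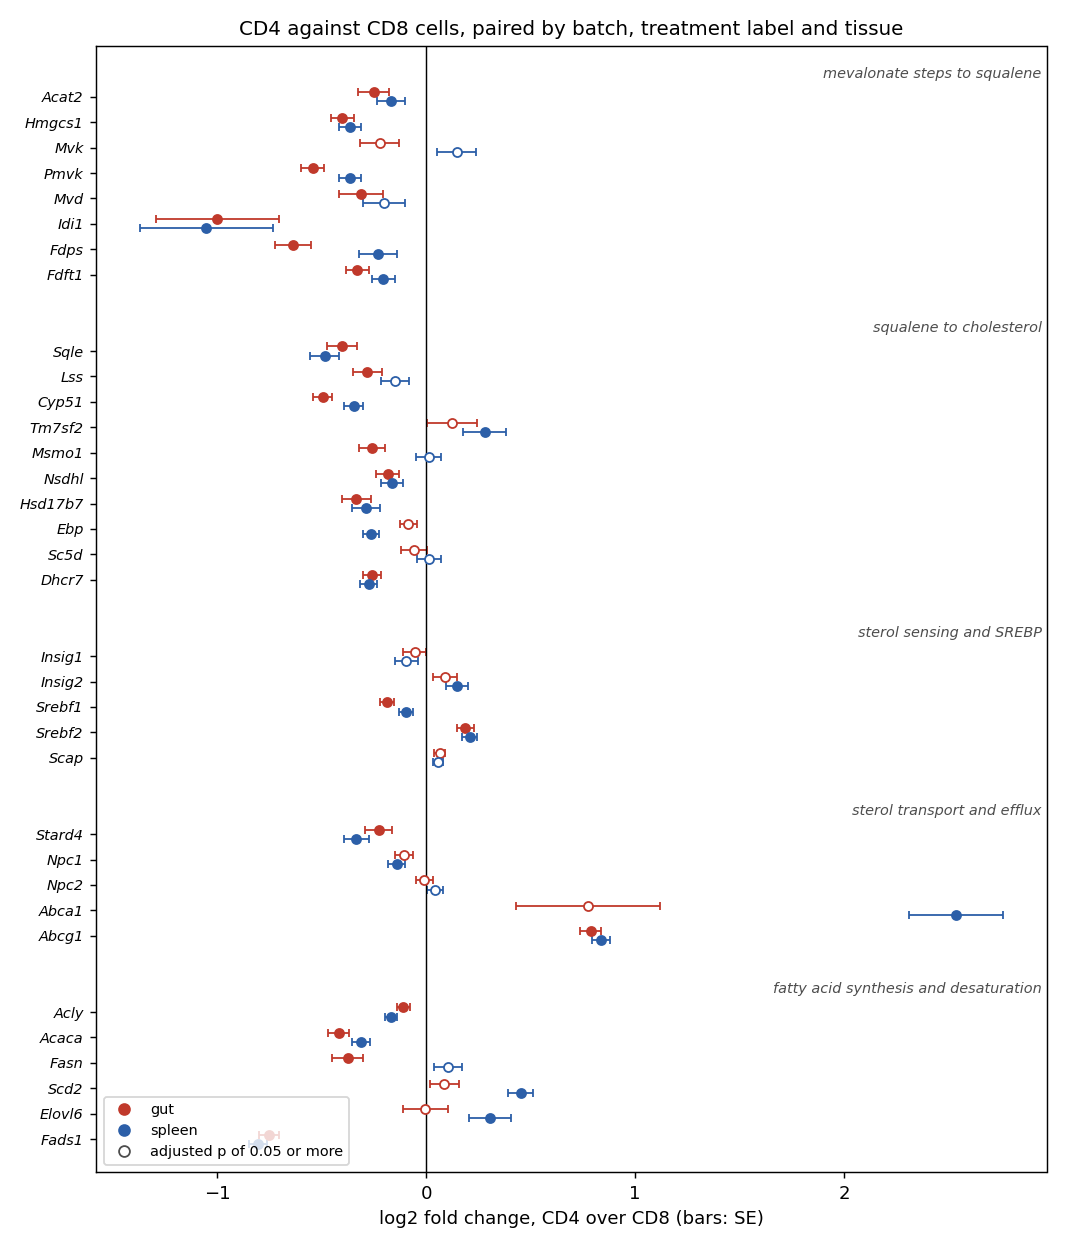
Log2 fold change of each member, CD4 over CD8, in gut (red) and spleen (blue), with bars of 1 SE and filled points for an adjusted p under 0.05. Most enzymes lie left of 0, Idi1 near -1, and Abcg1 lies right of 0 in both tissues.

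The study compared anti-IL-2 with IgG, and across the 3 batches as labelled no member was called in any of the 4 populations, as was no other gene of 12841 (background 0.00% in each). This comparison averages differences of opposite sign: Il2ra in spleen CD4 cells differed by -0.99 ± 0.82 (log2, SE) over the 3 batches and by -2.01 ± 0.12 over batches 181201 and 181212. The treatment labels of batch 190306 may be exchanged, which was not tested. The absence of calls over 3 batches therefore does not show that anti-IL-2 left these genes unaltered. At an unadjusted p under 0.05 in edgeR, 1 member passed in gut CD4 cells, 2 in gut CD8 cells and none in either spleen population, of 750, 953, 282 and 148 genes, and DESeq2 called no member, with 8 genes called in gut CD4, 18 in gut CD8 and 0 in each spleen population. Within batches the members' differences turned with the label check in the spleen. In spleen CD4 cells 24 of 34 members were lower with anti-IL-2 in batch 181201 and 24 in batch 181212, and 25 were higher in batch 190306. In spleen CD8 cells 23 and 22 were lower in the first pair of batches and 20 were higher in batch 190306. The matching counts over all genes were not made. In the gut the sterol enzymes did not turn in this way. Their median difference over 18 enzymes was -0.15 in gut CD4 cells of batch 181212 and 0.0008 in those of batch 190306. In gut CD8 cells it was 0.049 and 0.027 (log2 CPM, anti-IL-2 minus IgG).

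**Figure D4:**
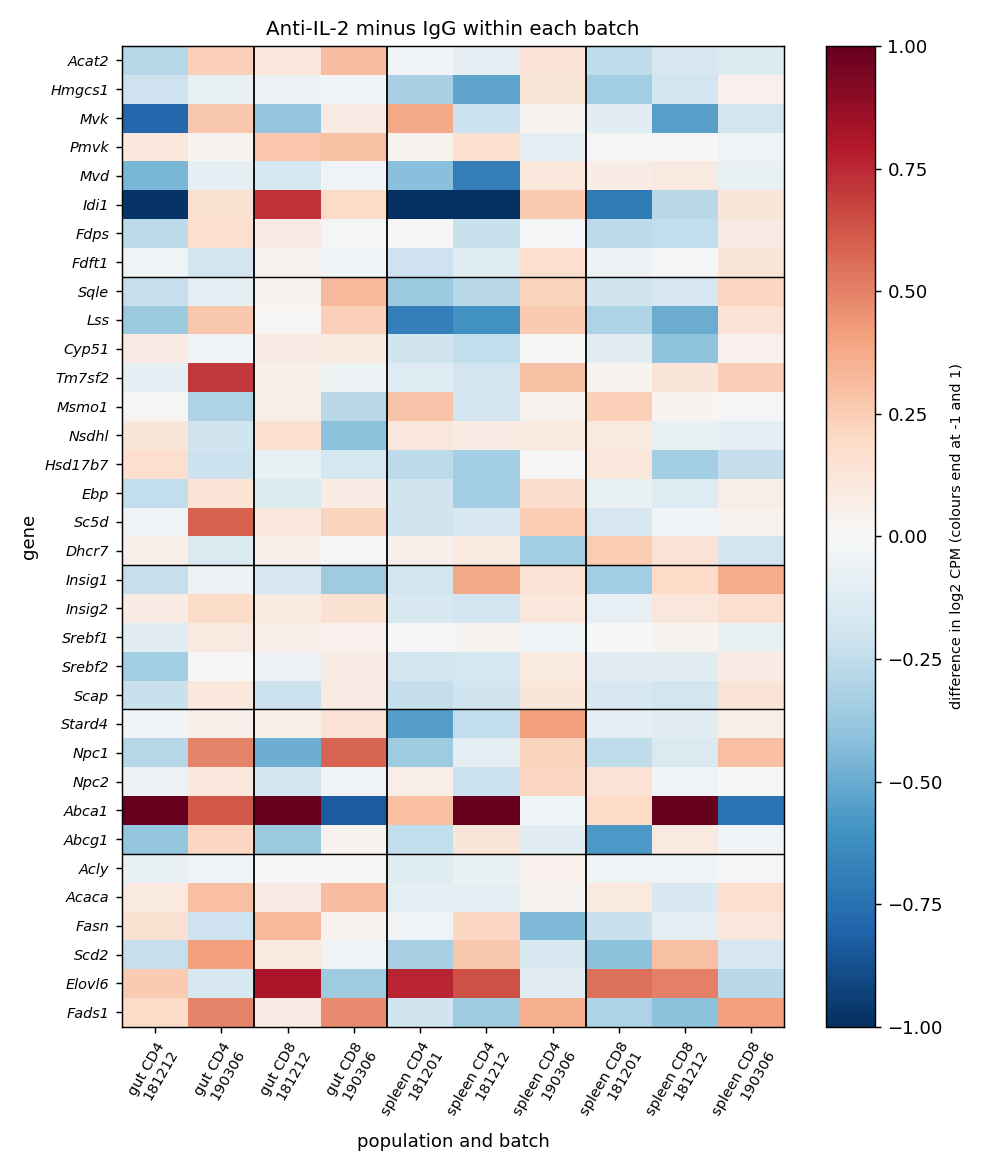
Difference in log2 CPM, anti-IL-2 minus IgG, for each of the 34 members (rows, with lines between roles) in each population and batch (columns, gut before spleen). Spleen CD4 columns of batches 181201 and 181212 are mostly blue for the sterol enzymes and that of batch 190306 mostly pale red, and Elovl6 is red in batches 181201 and 181212 and blue in batch 190306.

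In a fit of batches 181201 and 181212, which was chosen with the reversal known, 3 members were lower in gut CD4 cells (background 11.7% of genes called, 6.04% higher and 5.68% lower), and 1 was higher and 1 lower in gut CD8 cells (10.7%, 5.51% higher and 5.22% lower). In spleen CD4 cells 1 was higher and 8 lower (20.1%, 9.80% higher and 10.3% lower), and in spleen CD8 cells 1 was higher and 2 lower (12.1%, 6.06% higher and 6.08% lower). Counting both directions, the share of members called was below the background in gut CD4, gut CD8 and spleen CD8 cells. It was above the background in spleen CD4 cells. Each gut IgG group held 1 library in this fit, which was assumed to vary like the other groups. Elovl6 had the smallest p. It was at 34.0 and 28.9 CPM in spleen CD4 anti-IL-2 libraries, against 20.0 and 18.5 CPM in spleen CD4 IgG libraries, and at 25.6 and 23.7 CPM in spleen CD8 anti-IL-2 libraries, against 17.5 and 16.7 CPM in spleen CD8 IgG libraries. In the gut it was at 34.9 and 30.7 CPM in CD8 anti-IL-2 libraries, against 17.4 CPM in the CD8 IgG library, and at 31.9 and 32.7 CPM in CD4 anti-IL-2 libraries, against 27.2 CPM in the CD4 IgG library. In batch 190306 it was at 22.5 CPM with anti-IL-2 and 24.2 CPM with IgG in spleen CD4 cells, 16.3 and 19.8 CPM in spleen CD8, 20.1 and 22.3 CPM in gut CD4, and 23.1 and 29.5 CPM in gut CD8. The higher level with anti-IL-2 was thus seen in batches 181201 and 181212 and the lower one in batch 190306. The log2 fold changes in the fit of those batches were 0.85 ± 0.12 in gut CD8 (SE, adjusted p = 8.6e-04), 0.72 ± 0.09 in spleen CD4 (adjusted p = 1.1e-04) and 0.52 ± 0.095 in spleen CD8 cells (adjusted p = 0.0028), by edgeR's quasi-likelihood test.

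Lss was lower with anti-IL-2 in 3 populations. It was at 34.6 and 35.9 CPM in gut CD4 anti-IL-2 libraries, against 46.5 CPM in the gut CD4 IgG library. In spleen CD4 cells it was at 19.3 and 19.0 CPM in spleen CD4 anti-IL-2 libraries, against 31.1 and 28.9 CPM in spleen CD4 IgG libraries. Lss was at 24.2 and 23.2 CPM in spleen CD8 anti-IL-2 libraries, against 29.9 and 32.8 CPM in spleen CD8 IgG libraries. In batch 190306 it was at 50.8 CPM with anti-IL-2 and 42.2 CPM with IgG in gut CD4, 28.4 and 23.7 CPM in spleen CD4, and 29.1 and 26.4 CPM in spleen CD8 cells. The groups did not overlap in batches 181201 and 181212, and the order was opposite in batch 190306. Its log2 fold changes in batches 181201 and 181212 were -0.39 ± 0.10 in gut CD4, -0.63 ± 0.09 in spleen CD4 and -0.41 ± 0.08 in spleen CD8 cells (SE).

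The other spleen CD4 calls were all lower with anti-IL-2: Hmgcs1 (-0.42 ± 0.09), Mvd (-0.55 ± 0.12), Sqle (-0.32 ± 0.10), Ebp (-0.26 ± 0.08), Srebf2 (-0.17 ± 0.06), Scap (-0.21 ± 0.07) and Stard4 (-0.38 ± 0.09, log2, SE). Hmgcs1 was at 40.9 and 44.3 CPM in spleen CD4 anti-IL-2 libraries, against 51.2 and 64.1 CPM in spleen CD4 IgG libraries, and Mvd at 10.6 and 10.2 CPM, against 14.1 and 16.5 CPM. Srebf2 was at 214.2 and 225.3 CPM in spleen CD4 anti-IL-2 libraries, against 243.1 and 254.9 CPM in spleen CD4 IgG libraries, and at 352.8 and 340.7 CPM in gut CD4 anti-IL-2 libraries, against 430.7 CPM in the gut CD4 IgG library. In gut CD4 cells Mvk (-0.75 ± 0.21) and Srebf2 (-0.30 ± 0.07) were lower too, in spleen CD8 cells Fads1 (-0.37 ± 0.09), and in gut CD8 cells Npc1 (-0.52 ± 0.09, log2, SE). Npc1 was at 69.7 and 68.4 CPM in gut CD8 anti-IL-2 libraries, against 96.1 CPM in the gut CD8 IgG library, and in batch 190306 at 120.4 CPM with anti-IL-2 and 80.2 CPM with IgG. Of the 17 calls in 12 members, 16 had the opposite sign in batch 190306, and the remaining one, Srebf2 in gut CD4 cells, was at -0.0004 (log2) there. The matching share over all genes called in this fit was not counted, and the fit was chosen with the reversal known. The count therefore does not set the members apart from other genes.

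Proliferation genes were lower with anti-IL-2 in the spleen in the same fit, 27 of 30 in CD4 and 26 of 30 in CD8 cells, and 8 and 10 of 30 were higher in gut CD4 and CD8 cells. Macrophage markers had a median log2 fold change of 2.45 in spleen CD4 cells, with 2 of 10 called, and adipocyte markers were higher in gut with 5 of 6 called in each cell type. Pancreatic acinar markers were also higher in gut, with 4 of 9 called in each cell type. Of 7 fibroblast and endothelium markers, 3 were higher in gut CD4 and 5 in gut CD8 cells. Of 10 gut epithelium markers, 4 were higher and 1 lower in gut CD4 cells, and 6 were higher in gut CD8 cells. The part of these in the members' differences was not tested. For the comparison of gut and spleen effects that follows, each gut IgG group held 1 library. An absence of calls there does not show that the effects were equal. The treatment effect did not differ between gut and spleen for any member by edgeR's test of the difference (0 of 34 called in CD4 cells, background 5.39%, with 3.45% higher and 1.94% lower, and 0 in CD8 cells, background 2.39%, with 1.32% higher and 1.07% lower), with 6 and 8 members at an unadjusted p under 0.05, and DESeq2 called 0 in each. The smallest of these p values were those of Elovl6 in CD4 cells (-0.52 ± 0.15, log2, gut minus spleen, SE, adjusted p = 0.061) and Fasn in CD8 cells (0.45 ± 0.13, adjusted p = 0.10). The gut CD4 count of 3 was 1 without anti-IL-2 replicate 1 (6.57% of all genes called in that fit) and 0 without anti-IL-2 replicate 2 (4.86%). The spleen CD4 count of 9 was 3 without IgG replicate 2 (13.8%) and 4 without anti-IL-2 replicate 1 (1562 of 12991 genes). The spleen CD8 count of 3 was 1 without IgG replicate 2 (7.30%) or anti-IL-2 replicate 2 (5.34%).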

How the data were processed

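RNA was measured in 22 libraries made with a stranded mRNA kit, per the labels' protocols. The deposited table holds the authors' raw counts of reads for each gene symbol, with no normalization. Per the submitters' processing notes the tools were TopHat2 and HTSeq 0.9.1 and the build mm10; the annotation, the strand setting and filters are not given in the sources used here. Of 24091 symbols, 23509 (97.6%) matched GENCODE M21, whose exons gave lengths and coordinates.

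Tests were run with edgeR 4.0.16 in R 4.3.3 (filterByExpr on the group, TMM, robust quasi-likelihood F test), with Benjamini-Hochberg adjustment across every gene in the fit and a threshold of 0.05. Gut against spleen used a block of batch, treatment label and cell type and 8 residual degrees of freedom, CD4 against CD8 a block of batch, label and tissue. Anti-IL-2 against IgG used 8 groups and batch, over 22 libraries (12841 genes) and over the 14 libraries of batches 181201 and 181212 (13073 genes, 5 residual degrees of freedom). The batch is named in the labels, and gut and spleen libraries of the same batch and label deviated together from their group means (correlations across genes of 0.516 to 0.771 in 10 pairs). Log2 CPM used a prior count of 2. The scripts were tested on simulated data.

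The members and lists were chosen with earlier results of these data known. Values in every library are given for the 12 members with the smallest p in gut against spleen and the 6 with the smallest p in anti-IL-2 against IgG; values of Abcg1 and ranges of other members were added after they were seen. From each other list up to 3 called genes with the smallest p could be named. Alternatives were DESeq2 1.42.0, RLE size factors, other filters on low counts, other blocks, and leaving out a batch or single libraries; leaving out the 4 gut anti-IL-2 libraries with adipocyte markers was added after seeing the data. Promoters came from a RefSeq table (GRCm38.p6). Counts limit precision by counting error only, and without molecular identifiers reads cannot be taken as separate molecules. Recipients lacking PD-L1, named in the series title, are not analysed here.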

Additional observations from a re-analysis of the deposited data

Results flagged for a closer look

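The effect of gut against spleen differed between CD4 and CD8 cells for Abca1, by -1.72 on the log2 scale (CD4 minus CD8, SE 0.34, adjusted p = 0.025 in edgeR), and for Fasn, by -0.48 (SE 0.09, adjusted p = 0.016). Abca1 was lower in gut in 5 of 5 CD4 pairs and 5 of 5 CD8 pairs, and Fasn in 5 of 5 CD4 pairs and in 3 of 5 CD8 pairs. Leaving out 1 library at a time, Abca1 ranged from -1.89 to -1.47 with adjusted p up to 0.087 in edgeR. Its call was lost in 10 of the 22 fits that each left out 1 library. Fasn ranged from -0.54 to -0.43 and kept its call. Groups of 2 or 3 libraries were too small to test for a single library far from the others.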

How the results depend on the processing

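Counts of called members kept within 1.5 times of the values above under DESeq2, RLE size factors and other count filters, except for gut CD4 (1) and spleen CD4 (5) with DESeq2 in the anti-IL-2 comparison of batches 181201 and 181212. With no replicate block, 18 members were called for gut against spleen in CD4 and 16 in CD8 cells, 7 for CD4 against CD8 in gut and 13 in spleen, and 0 for the gut effect of CD4 minus CD8; in the 3-batch anti-IL-2 comparison no replicate block left 0 in each population, and in the 2-batch one it left 2 in gut CD4, 2 in gut CD8, 7 in spleen CD4 and 3 in spleen CD8. With batch in place of the block 11 were called for CD4 against CD8 in gut and 0 for CD4 minus CD8, a count that was also 0 without batch 190306 and without the 4 gut anti-IL-2 libraries with adipocyte markers. The causes were not tested.

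Leaving out 1 library at a time gave 22 to 24 members for gut against spleen in CD4 cells, 20 to 22 in CD8 cells, 1 to 3 for their difference, 18 to 23 for CD4 against CD8 in gut and 21 to 25 in spleen, and 0 for anti-IL-2 in 3 batches. In 2 batches it gave 0 to 1 in gut CD4, 2 in gut CD8, 3 to 7 in spleen CD4 and 1 to 2 in spleen CD8 cells, and 0 to 1 for the gut minus spleen effect in CD4 cells and 0 in CD8 cells. Without a gut IgG library the gut contrast of 2 batches has no IgG group, so no value was computed. Of the members' values under the alternatives, 6566 stayed on their side of the threshold with their direction where called, 224 lost and 43 gained a call, none that was called turned its sign, and 29 had no adjusted p in DESeq2. These counts pool all comparisons, and members that were not called and stayed so are among those that stayed. The 3-batch anti-IL-2 comparison and the gut minus spleen treatment effect had no called member, so none could lose a call there. The pooled count is thus not a measure of how stable the calls were. Members under about 1 CPM, such as Idi1, are limited by depth.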
